A study of Mus musculus with 14 samples.

Results

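Nuclear genes for complexes II to V of the respiratory chain and for cytochrome c were followed in hippocampal parvalbumin (PV) neurons of mice from an experiment on chronic social defeat stress (CSDS). Members were the protein-coding genes of the count table with a symbol beginning with Uqcr, Atp5 or Cox4 to Cox8, or equal to Sdha, Sdhb, Sdhc, Sdhd, Cyc1 or Cycs. The rule gave 49 genes of 39017 gene identifiers. Complex II had 4 members, complex III 9, cytochrome c 1, complex IV 18 and complex V 17. Because the rule reads symbols, it also took genes outside the core machines, such as Cox7a2l, which is tied to the joining of complexes III and IV, and Atp5s. In all, 48 members had enough counts to be tested, and Cox8c, a testis form of a complex IV subunit, had between 0 and 2 counts per library.

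Complex II oxidizes succinate and passes electrons to ubiquinone. Complex III hands them on to cytochrome c, complex IV transfers them to oxygen, and complex V uses the proton gradient built on the way to make ATP. Most subunits of these complexes are coded in the nucleus and translated on cytosolic ribosomes, while a few core subunits are coded in mitochondrial DNA and translated inside the organelle. PV interneurons fire fast and are rich in mitochondria.

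RNA came from EGFP-L10a+; PV-Cre+ mice, in which Cre under the PV gene turns on a ribosomal protein fused to EGFP. All mice were adult males of C57BL/6 background and carried both alleles. In translating ribosome affinity purification (TRAP), tagged ribosomes were precipitated from hippocampal homogenate, both hippocampi of a mouse were pooled for each TRAP sample, and the RNA bound to the ribosomes was sequenced. The 4 non-defeated samples came from control mice, while the 4 resilient and 3 susceptible samples came from defeated mice. These were split by a ratio, the time spent near an enclosure with an unfamiliar aggressor over the time near the empty enclosure. Susceptible mice had a ratio under 1 and resilient mice a ratio of at least 1. The input was total RNA of 3 hippocampal homogenates from non-defeated mice. Samples are named here by the number in their names, which is 1, 6, 9 and 11 for non-defeated, 3, 5, 7 and 8 for resilient, 2, 4 and 10 for susceptible and 12, 13 and 14 for input. Values of a group are always listed in that order.

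Libraries held between 64110214 and 94726962 counts on genes, and members took between 1.557% and 1.605% of them in input and between 3.324% and 4.141% in TRAP. Levels are given as RPKM, counts scaled to exon length and library size, so that genes of different length could be compared. All 8 PV neuron markers examined passed an adjusted p under 0.05 with a higher level in non-defeated TRAP than in input, against 27.4% of all genes. Their summed level was 529 to 632 CPM (counts scaled to library size) in input and 3868 to 4225 CPM in TRAP. Markers of other cells remained measurable in TRAP, with sums of 742 to 978 CPM for excitatory neurons, 520.3 to 700.4 CPM for oligodendrocytes, 164 to 268 CPM for astrocytes, 24.9 to 31.9 CPM for microglia and 4.17 to 8.59 CPM for endothelium in non-defeated TRAP. Fewer cells of a type and less RNA per cell cannot be told apart in such bulk samples.

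The comparison of non-defeated TRAP with input asked which members were more abundant in PV neuron TRAP than in total RNA of the whole hippocampus. TRAP and input differ both in cell source and in RNA fraction, ribosome-bound against total. These cannot be told apart here. Of the 48 members tested, 45 rose, 1 fell and 2 did not pass an adjusted p under 0.05. That was 93.8% of members higher, against 27.4% of all 21298 genes tested, and 2.08% lower, against 27.6% of all genes. The median log2 fold change was 1.49 over members (2.80-fold) and -0.04 over all genes. Short coding genes outside the members also stood higher more often than long ones. At an unadjusted p under 0.05, 48.3% of those with at most 600 coding bases were higher, and 15.9% above 2400 bases. Of the 37 members with at most 600 coding bases, 94.6% were higher. The median was 1.58 for these members and 0.33 for other genes of that length. By complex, the median log2 fold change was 0.89 for complex II, 1.37 for complex III, 1.72 for cytochrome c, 1.69 for complex IV and 1.54 for complex V.

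**Figure D1:**
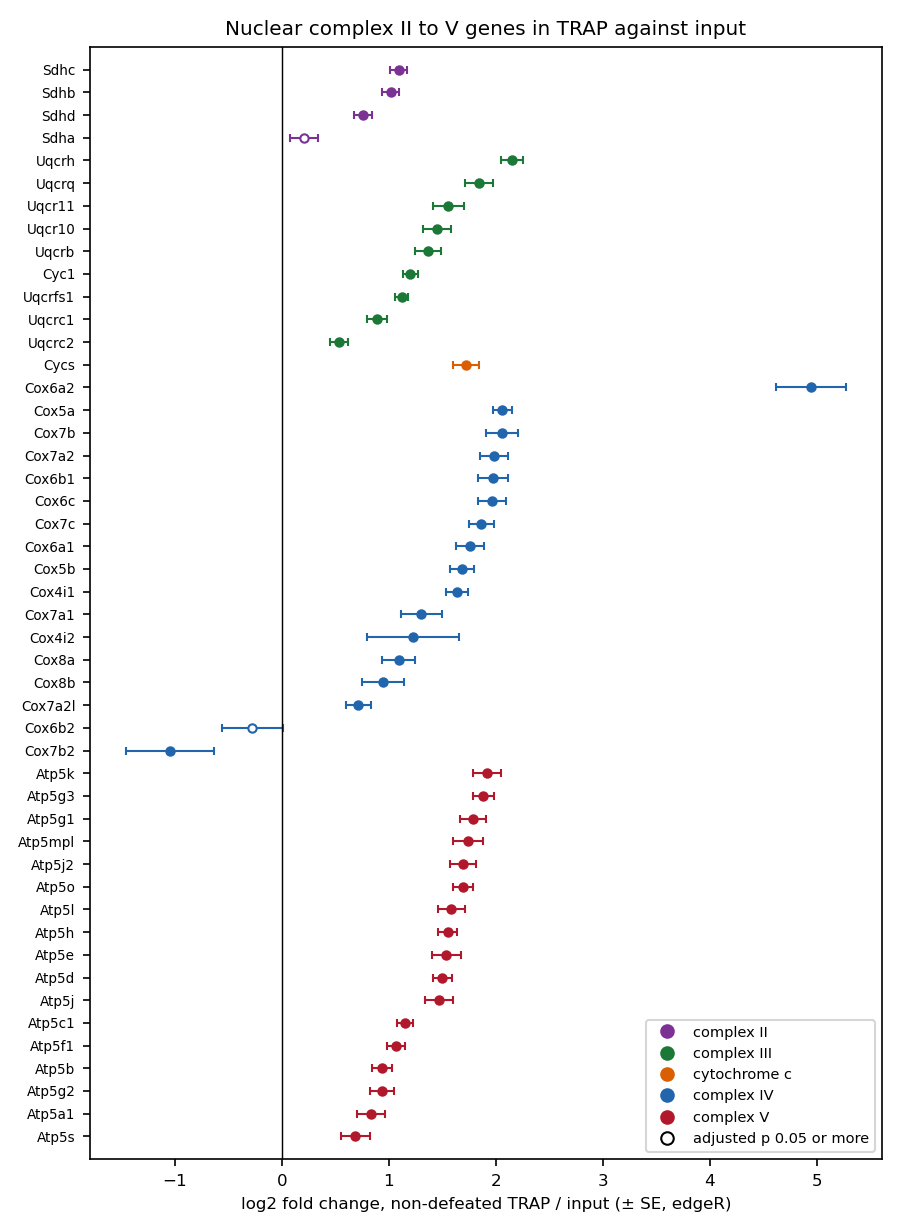
Log2 fold change of each tested member between non-defeated TRAP (n = 4) and input (n = 3) on the x axis, and the gene on the y axis, coloured by complex. Bars are standard errors derived from the edgeR test statistic. Filled points passed an adjusted p under 0.05. Cox6a2 stands apart at 4.95, and Sdha, Cox6b2 and Cox7b2 lie at or below the low end.

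Within complex II, Sdha, the flavoprotein that oxidizes succinate, had 164, 158 and 168 RPKM in input and 158, 165, 228 and 204 RPKM in non-defeated TRAP. The 2 ranges overlapped, since libraries 1 and 6 lay within or below the input range. Its log2 fold change was 0.21 ± 0.13 (SE; adjusted p = 0.197). The iron-sulfur subunit Sdhb had 119.9, 116 and 119 RPKM in input and 249, 251, 229 and 228 RPKM in TRAP, with no overlap. Sdhb rose by 1.02 ± 0.08 on the log2 scale (adjusted p = 1.15e-07), and the membrane anchors Sdhc and Sdhd rose by 1.09 and 0.76 (adjusted p = 4.44e-08 and 2.9e-06).

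All 9 members of complex III rose. Uqcrh, the hinge protein that helps cytochrome c dock, had 135, 131 and 136 RPKM in input and 666, 641, 524 and 557 RPKM in TRAP, so every TRAP library was above every input library. Its log2 fold change was 2.16 ± 0.10 (adjusted p = 2.59e-09), the highest of the complex. The Rieske iron-sulfur protein Uqcrfs1 was among the members with least spread, with 309.5, 314, 313 and 314 RPKM in TRAP against 141, 143 and 147 RPKM in input (log2 fold change 1.12 ± 0.06, adjusted p = 7.99e-09). Cyc1, the heme-bearing cytochrome c1, rose by 1.20 (adjusted p = 1.4e-08). The 2 core proteins gave the smallest log2 fold changes of the complex, 0.89 for Uqcrc1 and 0.54 for Uqcrc2 (adjusted p = 2.36e-06 and 8.13e-05). Cycs, the mobile electron carrier between complexes III and IV, had 142, 149 and 144 RPKM in input and 526, 508, 431 and 445 RPKM in TRAP and rose by 1.72 ± 0.12 (adjusted p = 4.16e-08).

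Complex IV held both the largest rise and the fall. Several of its subunits exist as pairs of isoforms, typically a widely expressed form and a form of heart and skeletal muscle, lung or testis. Cox6a2 (ENSMUSG00000030785, chr7:128205435-128206387), the heart and muscle form, had 7.50, 10.3 and 15.1 RPKM in input and 363, 418, 285 and 296 RPKM in non-defeated TRAP. No TRAP library came near the input libraries, and the log2 fold change was 4.95 ± 0.32 (30.9-fold, adjusted p = 2.81e-08). Cox6a1, the widely expressed form, had 517, 520.2 and 509 RPKM in input and 1861, 1896, 1526 and 1687 RPKM in TRAP, a log2 fold change of 1.76 ± 0.13 (adjusted p = 7.22e-08). The share of Cox6a2 in the summed RPKM of the pair was therefore 2.09% ± 0.738 (SD, n = 3) in input and 16.3% ± 1.33 (SD, n = 4) in non-defeated TRAP, with no overlap (1.43% to 2.89% against 14.9% to 18.1%). In resilient TRAP the share was 15.6% ± 3.56 (SD, n = 4). Susceptible TRAP had 15.5% ± 1.28 (SD, n = 3), and both ranges overlapped the non-defeated one.

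Other isoforms of complex IV were low. In non-defeated TRAP, Cox4i2 reached 0.925 ± 0.302 RPKM (SD, n = 4) beside 982 ± 59.8 RPKM for Cox4i1, and Cox8b 28.3 ± 3.46 RPKM beside 1891 ± 361 RPKM for Cox8a. Cox7a1, the muscle form, rose by 1.31 (adjusted p = 5.46e-05) but made up 1.38% of Cox7a1 and Cox7a2 in TRAP and 2.19% in input. Cox7b2 had 1.36, 0.784 and 3.03 RPKM in input and 1.05, 0.660, 1.13 and 0.518 RPKM in TRAP, which overlapped widely, and fell, its log2 change being -1.04 ± 0.41 (adjusted p = 0.0446), on between 20 and 147 counts per library. Without input library 12 or 14, or non-defeated library 6 or 11, no member was lower at that threshold. Cox6b2, a testis form, did not pass (log2 fold change -0.27 ± 0.29, adjusted p = 0.438). Of the subunits without a listed partner, Cox5a had the highest log2 fold change, 2.06 ± 0.09 (adjusted p = 1.99e-09), with 121, 122 and 123 RPKM in input and 527, 537, 459 and 512 RPKM in TRAP and no overlap.

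**Figure D2:**
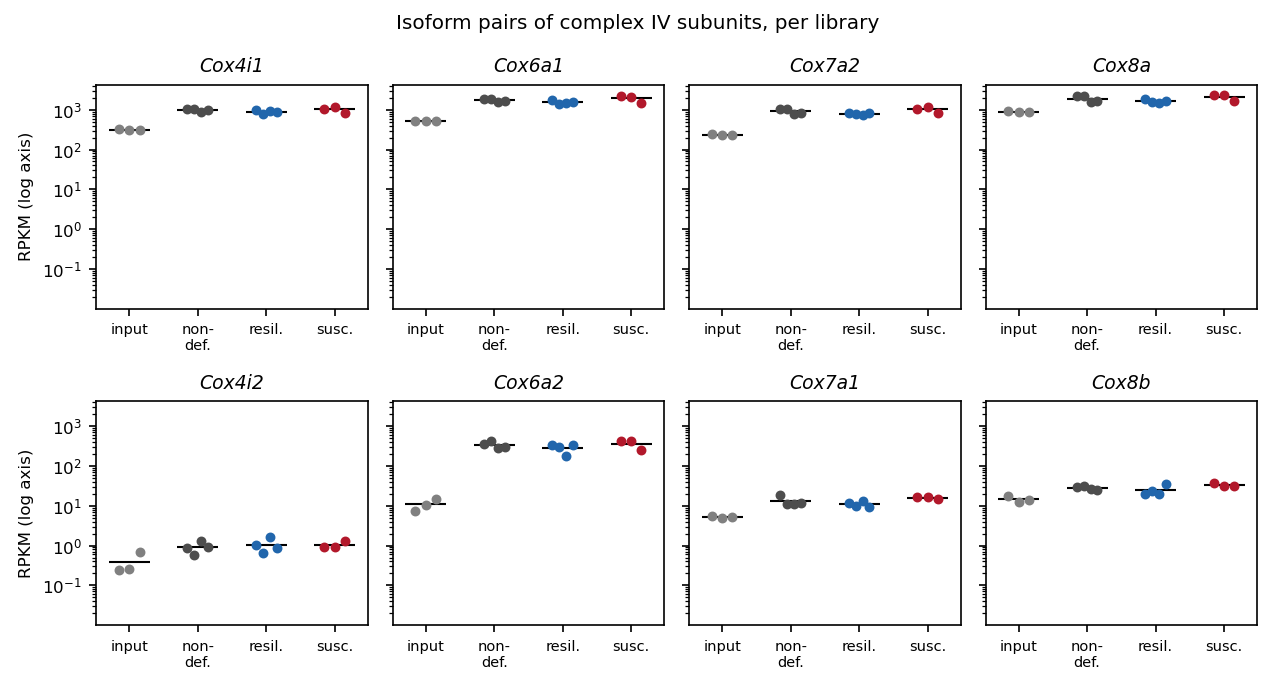
RPKM, on a log axis, of 4 isoform pairs of complex IV in each library of input (n = 3), non-defeated (n = 4), resilient (n = 4) and susceptible (n = 3) TRAP, with the widely expressed form above its partner and a line at each group mean. Cox6a2 rises from at most 15.1 RPKM in input to at least 285 in non-defeated TRAP, while Cox4i2, Cox7a1 and Cox8b stay far below their partners.

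All 17 members of complex V rose. The catalytic subunits Atp5a1 (alpha) and Atp5b (beta) rose by 0.83 and 0.94 (adjusted p = 7.73e-05 and 1.88e-06), less than the median of the complex. For Atp5b, the levels were 502, 489 and 503 RPKM in input and 811, 908, 1092 and 1004 RPKM in TRAP, with no overlap. Of the 3 genes that code for the same mature c subunit of the rotor ring, Atp5g3 rose by 1.89 ± 0.10, Atp5g1 by 1.79 ± 0.12 and Atp5g2 by 0.93 ± 0.11 (adjusted p = 4.75e-09, 3.86e-08 and 9e-06). The share of Atp5g2 in their summed RPKM was 16.4% ± 0.311 (SD, n = 3) in input and 9.39% ± 0.255 (SD, n = 4) in non-defeated TRAP, with no overlap. Atp5o, a stalk subunit, rose by 1.69 ± 0.09 (adjusted p = 7.35e-09).

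Mitochondrially encoded subunits and assembly factors were read beside the members. Mitochondrially encoded subunits of complexes III to V fell in 6 of 6 cases at an adjusted p under 0.05, against 27.6% of all genes. Their median log2 fold change was -4.81. Their sum was 2966 to 3275 CPM in input and 64.3 to 199.5 CPM in non-defeated TRAP. These subunits are translated inside the organelle and not on the tagged ribosomes, so their TRAP levels do not measure their translation. Assembly factors of complexes II to V rose in 34 of 40 cases and fell in 1 at that threshold, with a median of 0.81. Of all genes, 27.4% rose and 27.6% fell. The factor that fell was Coa5 (-1.15), and Cmc2 had the highest value (2.26).

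Per length, the order of the members within non-defeated TRAP was led by Cox8a, Cox6b1 and Cox6a1, with 1891 ± 361, 1853 ± 278 and 1743 ± 171 RPKM (SD, n = 4). Their ranges overlapped, so these neighbours did not differ beyond their spread. The order depends on the annotated exon length, which was 619, 708 and 702 bases for these 3 and 6443 bases for Atp5l. Without scaling to length, Atp5b, Atp5a1 and Cycs had the highest levels, with 4041, 1913 and 1626 CPM. Sdhc, with 82.9 ± 5.61 RPKM, was the lowest of complex II. Copies of a gene elsewhere in the genome limit such levels. Near-identical copies, of at least 95% identity over at least 80% of the coding sequence, were found for 15 members, and how reads were split between a gene and its copies is not given in the sources used here. The counts of the copies came to 207% of those of Atp5g2, 204% of Atp5l, 119% of Cycs, 77.2% of Cox7c, 39.6% of Atp5g1, 32.7% of Cox5b and 26.8% of Uqcrb. The cDNA kit does not mark strand, so reads where exons of a gene on the opposite strand overlap those of a member cannot be assigned to either. Such overlaps were found for 12 members (Uqcrb, Uqcrc2, Cox4i1, Cox5a, Cox6a2, Cox6c, Atp5a1, Atp5d, Atp5f1, Atp5j, Atp5l and Atp5o), and the largest overlap of each covered between 2.06% and 19.7% of its exon length, with 10.3% for Cox6a2.

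Promoters of members were searched for the core letters of 4 factors known to act on nuclear respiratory genes, since so many of the members stood high together. The window ran from 250 bases before to 50 bases after each start in RefSeq (GRCm38.p6), and both strands were read. Promoters were present for 35 members. The core GCGCATGC of nuclear respiratory factor NRF1 was found in 8 (22.9%) and in 3.05% of all 27025 promoters. CCGGAAGT, a core of GABPA, was found in 4 (11.4%) against 4.31%, AAGATGGC, a core of YY1, in 2 (5.71%) against 3.19%, and TCAAGGTCA, a core of ERR alpha, in 2 (5.71%) against 0.466%. No test was made, and a match says only that the letters are there. The windows with the NRF1 core, 5′ to 3′ on the strand of the gene and with the core in capitals, were
Sdhb (chr4:140961207-140961234, plus strand): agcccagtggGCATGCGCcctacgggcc
Uqcrc1 (chr9:108936668-108936695, plus strand): actccgctctGCGCATGCgcagcgcggc
Uqcr11 (chr10:80406808-80406835, minus strand): tcgccttcacGCATGCGCtatacgtctg
Cycs (chr6:50566612-50566639, minus strand): atgctagctcGCATGCGCgcgcacaaac
Cox6a1 (chr5:115349103-115349130, minus strand): caggaacgggGCGCATGCgcgctctcgc
Atp5g2 (chr15:102671072-102671099, minus strand): ggctccggccGCGCATGCgcagagcctt
Atp5k (chr5:108434432-108434459, minus strand): tttcactgcgGCGCATGCgcctttctgg
Atp5l (chr9:44920965-44920992, minus strand): aaccaataacGCATGCGCatttccccca
They came from every complex and from cytochrome c, and their changes between TRAP and input ran from Uqcrc1 at 0.89 to Atp5k at 1.92 on the log2 scale.

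Cycs was taken as the reference gene for likeness, because its protein links complexes III and IV. Over the 11 TRAP libraries, the members whose log2 CPM followed Cycs most closely were Atp5j (Pearson r = 0.966), Cox7b (r = 0.960) and Cox7a2l (r = 0.959). Many other members were close, for example Uqcrq (0.952) and Cox6b1 (0.905), so these 3 do not stand apart. Values were negative for Atp5a1 (-0.856), Uqcrc1 (-0.804), Sdha (-0.768), Uqcrc2 (-0.721), Atp5b (-0.706) and Cox4i2 (-0.245). The libraries of all 3 groups entered, and the genes share their libraries, depth and scaling, so these values are a description. The 250 bases before the start of Cycs (chr6:50566570-50566819, minus strand), with the NRF1 core in capitals, read
Cycs promoter: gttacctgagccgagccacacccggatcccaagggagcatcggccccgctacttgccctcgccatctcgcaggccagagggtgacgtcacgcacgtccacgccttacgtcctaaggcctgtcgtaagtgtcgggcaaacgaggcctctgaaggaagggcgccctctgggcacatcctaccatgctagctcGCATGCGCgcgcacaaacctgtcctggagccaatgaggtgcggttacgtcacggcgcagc

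After defeat, the question was whether the members differed between outcomes. In resilient against non-defeated TRAP, no member passed an adjusted p under 0.05 in edgeR or DESeq2, and neither did any other gene in edgeR (0.0% of all genes). At an unadjusted p under 0.05, 0 members were higher and 1 was lower in edgeR (0.0% and 2.08% of members), against 2.22% and 2.16% of all genes. In DESeq2 the counts were 0 and 3, against 1.61% and 1.65% of all genes in that fit. The median log2 fold change was -0.13 over members and 0.002 over all genes, with 39 of 48 negative. It was -0.02 for complex II, -0.15 for complex III, -0.18 for complex IV and -0.12 for complex V, and -0.11 for Cycs. The member past the unadjusted threshold was Cox7c (-0.23 ± 0.10, adjusted p = 1). Among the positive values were Sdha at 0.09 ± 0.12 and Uqcrc1 at 0.12 ± 0.09, within 2 SE of 0. The count of 1 lower became 9 without non-defeated library 9, 6 without non-defeated library 11 and 4 without resilient library 3, against 3.84%, 2.63% and 2.40% of all genes in those fits, and 0 without non-defeated library 1 or 6 or resilient library 5 or 7. Without non-defeated library 9, 1 member was higher, against 3.39% of all genes. All 5 endothelial markers were positive, with a median of 0.91 on the log2 scale, and Cldn5 alone was higher at the unadjusted threshold (1.15, adjusted p = 1). Their sums were 6.56 to 22.0 CPM in resilient against 4.17 to 8.59 CPM in non-defeated TRAP, and their part in the result was not tested.

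Susceptible against non-defeated TRAP gave 0 members at an adjusted p under 0.05 in edgeR and DESeq2, against 0.0376% of all genes in edgeR. At the unadjusted threshold, 2 members were higher and 1 was lower in edgeR (4.17% and 2.08%), against 6.61% and 6.7% of all genes. DESeq2 gave 0 and 0, against 3.78% and 4.0% of all genes in that fit. The median log2 fold change was 0.11 over members and 0.01 over all genes, with 36 of 48 positive. Uqcrb, a ubiquinone-binding subunit of complex III, was at 0.29 ± 0.12 (adjusted p = 0.329), Cox7c at 0.24 ± 0.11 (adjusted p = 0.375) and Sdha at -0.29 ± 0.13 (adjusted p = 0.369). Without susceptible library 10, 22 members were higher at the unadjusted threshold, against 8.87% of all genes in the same fit, and the median was 0.22. Without non-defeated library 1 the count was 9 (9.62% of all genes), and without susceptible library 4 it was 1 (6.19%). Without non-defeated library 9 or 11 or susceptible library 2 it was 0 (4.5%, 4.58% and 4.6%). The count of 1 lower became 4 without non-defeated library 1 (9.18% of all genes). It was 3 without non-defeated library 6 (7.2%) or susceptible library 10 (8.86%). Without non-defeated library 9 or 11 or susceptible library 2 it was 0 (4.42%, 4.56% and 4.62%). All 5 endothelial markers were positive, with a median of 0.89 on the log2 scale, and Cldn5 alone was higher at the unadjusted threshold (1.32, adjusted p = 0.179). Their sums were 9.45 to 14.8 CPM in susceptible against 4.17 to 8.59 CPM in non-defeated TRAP, with no overlap, and their part in the result was not tested. Both comparisons share the non-defeated libraries.

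The largest median difference of the members between stress groups was that of susceptible and resilient mice. In susceptible against resilient TRAP, the median log2 fold change was 0.26 over members (1.20-fold) and 0.003 over all genes. At an adjusted p under 0.05, 1 member was higher (2.08%, against 1.02% of all genes) and 0 were lower (0.0%, against 0.873%) in edgeR. DESeq2 gave 4 and 0, against 1.84% and 1.82% of all genes in that fit. At an unadjusted p under 0.05, 25 members were higher (52.1%, against 10.8% of all genes) and 4 were lower (8.33%, against 10.1%) in edgeR. DESeq2 gave 21 and 4, against 6.96% and 6.79% of all genes in that fit. The 25 were 5 of 9 members of complex III, Cycs, 11 of 17 of complex IV and 8 of 17 of complex V, with none of complex II. The 4 were Sdha, Uqcrc1, Atp5a1 and Atp5b. Medians were -0.01 for complex II, 0.29 for complex III, 0.32 for complex IV and 0.19 for complex V.

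**Figure D3:**
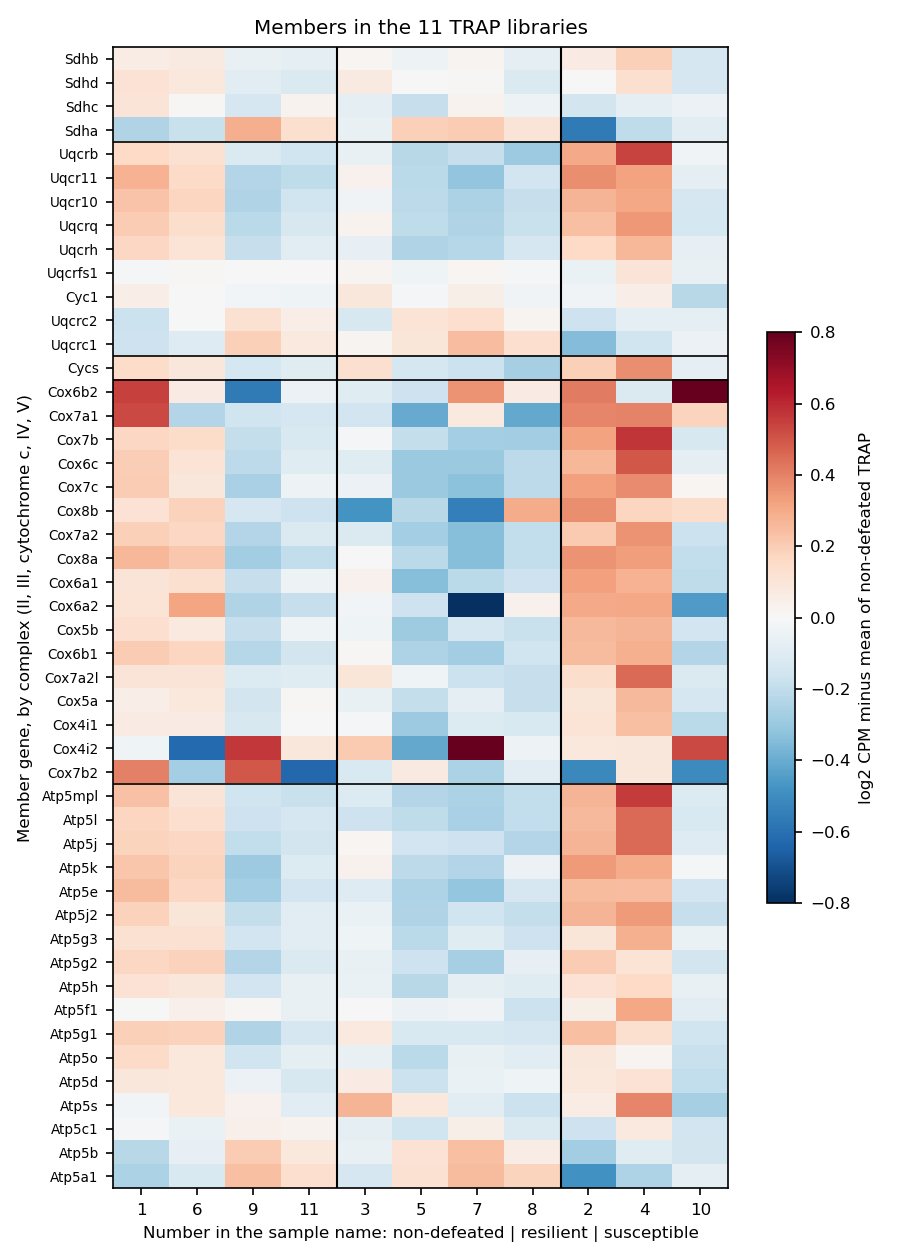
Log2 CPM of the 48 tested members (y axis, by complex and by their change between susceptible and resilient) in the 11 TRAP libraries (x axis, by group and sample number), as the difference from the non-defeated mean. The colour scale ends at -0.8 and 0.8. Susceptible libraries 2 and 4 are high for most members and low for Sdha, Uqcrc1, Atp5a1 and Atp5b, while susceptible library 10 is below 0 for most members.

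The member past the adjusted threshold was Cox7c (ENSMUSG00000017778, chr13:86044816-86046904 in GRCm38), a small membrane subunit of complex IV. Its levels were 537, 452, 442 and 479 RPKM in resilient, 698, 722 and 560.1 RPKM in susceptible and 639.7, 591, 465 and 540.5 RPKM in non-defeated TRAP. The lowest susceptible library was above the highest resilient library, and the non-defeated libraries spread over both. Cox7c was higher in susceptible TRAP by 0.47 ± 0.11 on the log2 scale (1.38-fold, adjusted p = 0.0484). The fit took its spread from all 14 libraries, input among them. Cox7c had 153 ± 2.75 RPKM (SD) in input, 477 ± 42.5 in resilient and 660 ± 87.2 in susceptible TRAP, so input varied least. With TRAP libraries only, Cox7c did not pass the adjusted threshold, and 0.0% of all genes were called higher. Across 18 other settings its adjusted p ran from 0.0105 to 0.179 and stayed under 0.05 in 6, and it was 0.0569 when the counts of its copies Gm12338 and Gm10012 were added to it. The 250 bases before the start of Cox7c (chr13:86046796-86047045, minus strand), shown because Cox7c alone passed, held none of the 4 cores in this window. The RefSeq start lies 109 bases inside the gene as placed above from GENCODE, so the first 109 bases before it are within that gene:
Cox7c promoter: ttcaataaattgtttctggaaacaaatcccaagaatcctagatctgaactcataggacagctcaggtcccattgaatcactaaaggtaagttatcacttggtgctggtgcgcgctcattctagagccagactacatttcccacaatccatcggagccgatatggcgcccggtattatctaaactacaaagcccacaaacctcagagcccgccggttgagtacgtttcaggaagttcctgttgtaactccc

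In complex II, Sdha (chr13:74322254-74350280) had 178, 213, 214 and 199.6 RPKM in resilient and 126, 162 and 175 RPKM in susceptible TRAP, so the highest susceptible library was below the lowest resilient library. Its log2 fold change was -0.38 ± 0.13 (adjusted p = 0.125). The other members of complex II gave 0.07 for Sdhb, -0.02 for Sdhc and 0.01 for Sdhd, each within 1 SE of 0. In complex III, Uqcrb had 532, 475, 488 and 453 RPKM in resilient and 686, 808 and 545 RPKM in susceptible TRAP, with no overlap, and a log2 fold change of 0.48 ± 0.12 (adjusted p = 0.0506). Uqcrc1, a core protein of the same complex, had 247, 261, 289 and 268 RPKM in resilient and 192, 218 and 235 RPKM in susceptible TRAP, again with no overlap but in the opposite direction (-0.30 ± 0.09, adjusted p = 0.0929). Uqcrh, Uqcrc2, Cyc1 and Uqcrfs1 were at 0.29, -0.14, -0.09 and 0.00. Cycs was at 0.27 ± 0.11 (adjusted p = 0.182), and its groups overlapped, with 521, 432, 423 and 396 RPKM in resilient and 542, 615 and 450.3 RPKM in susceptible TRAP.

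Among the other members of complex IV, Cox6c had 348, 303, 304 and 323 RPKM in resilient and 449, 526 and 353 RPKM in susceptible TRAP, with no overlap (0.47 ± 0.12, adjusted p = 0.0595). Cox7b had 674, 597, 565 and 564 RPKM and 854, 1017 and 625 RPKM, where susceptible library 10 lay below resilient library 3 (0.47 ± 0.14, adjusted p = 0.0796). The isoforms Cox6a1 and Cox6a2 gave log2 fold changes of 0.32 ± 0.12 and 0.32 ± 0.26, and the share of Cox6a2 overlapped between the groups. Cox7b2 was at -0.19 ± 0.43 and Cox4i2 at 0.02 ± 0.41, on few counts.

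In complex V, no member passed the adjusted threshold. Atp5mpl, a proteolipid of the membrane part, had 417, 383, 378 and 393 RPKM in resilient and 544, 663 and 417 RPKM in susceptible TRAP, where library 10 lay just below resilient library 3 (0.46 ± 0.13, adjusted p = 0.0746). Atp5l, which helps complex V to pair, was at 0.42 ± 0.12 (adjusted p = 0.0734). Atp5b had 909, 1028, 1121 and 988 RPKM in resilient and 780.0, 887 and 854 RPKM in susceptible TRAP, with no overlap (-0.27 ± 0.10, adjusted p = 0.135). Atp5a1 had 551, 659, 719 and 684 RPKM and 432, 510.4 and 576 RPKM, with susceptible library 10 above resilient library 3 (-0.37 ± 0.13, adjusted p = 0.124).

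The difference rested unevenly on the susceptible libraries. Relative to the non-defeated mean, the median over all members was 0.20 in susceptible library 2, 0.27 in library 4 and -0.13 in library 10 on the log2 scale. In resilient libraries it was -0.03, -0.20, -0.15 and -0.14, and in non-defeated libraries 0.14, 0.09, -0.16 and -0.09. Without susceptible library 10, 19 members were higher at an adjusted p under 0.05, against 3.01% of all genes in the same fit, and the median was 0.35. Library 10 had the lowest sum of PV neuron markers of the 11 TRAP libraries, with 3202 CPM against 3641 to 4472 CPM in the others. It had the highest sums of astrocyte markers, with 339 CPM against 159.9 to 279 CPM, and of microglia markers, with 35.2 CPM against 24.8 to 32.4 CPM. Its sums for excitatory neurons (1090 CPM) and oligodendrocytes (738 CPM) were below those of resilient library 5 alone (1174 and 985 CPM). The part of these markers in the result was not tested. No member passed it without any other library of the 2 groups, and the unadjusted count of 25 became 8 without susceptible library 4, 11 without susceptible library 2 and 16 without resilient library 5, against 9.39%, 7.58% and 9.78% of all genes. The count of 4 lower became 1 without susceptible library 2, against 7.13% of all genes.

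**Figure D4:**
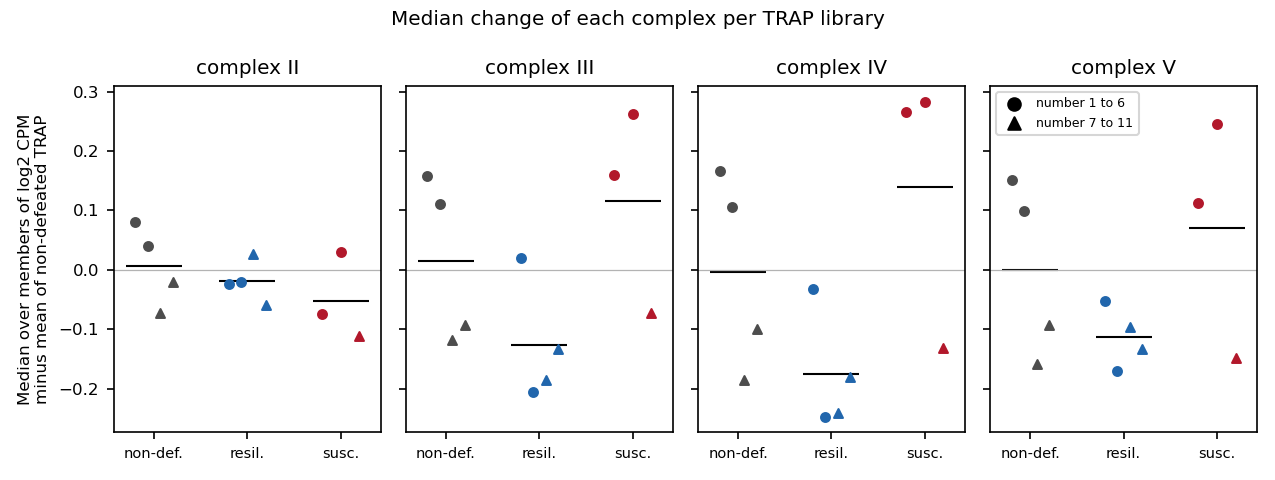
Median over the members of each complex of log2 CPM minus the non-defeated mean (y axis) in each TRAP library, by group (x axis), with circles for sample numbers 1 to 6, triangles for 7 to 11 and a line at the group mean. In complexes III, IV and V, susceptible libraries 2 and 4 lie above 0 and library 10 below 0, and in the non-defeated group numbers 1 and 6 lie above 9 and 11.

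Sample numbers split the libraries of each TRAP group into 1 to 6 and 7 to 11, although nothing in the labels says what the numbers mark. Among numbers 1 to 6, the median difference between susceptible and resilient TRAP was 0.31 on the log2 scale, with 41 of 48 members positive (2 libraries each). Among numbers 7 to 11, with 1 susceptible library, it was 0.02, with 27 of 48 positive. For resilient minus non-defeated the values were -0.25 and -0.03, and for susceptible minus non-defeated 0.10 (34 of 48 positive) and 0.005 (25 of 48). Sdha kept its direction in both, with -0.45 and -0.24, as did Cox7c, with 0.53 and 0.28. With a covariate for numbers 7 to 11, the median was 0.21 and 2 members, Cox7c and Uqcrb, had an adjusted p of 0.0463.

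The changes of members after defeat were ordered by the length of their coding sequence. Of 37 members with at most 600 coding bases, 35 were positive in susceptible against resilient TRAP, 25 were higher at an unadjusted p under 0.05 and the median was 0.32. Of 5 members with over 1200 coding bases (Sdha, Uqcrc1, Uqcrc2, Atp5a1 and Atp5b), 0 were positive, 4 were lower at that threshold and the median was -0.30. Members of 600 to 1200 bases had a median of 0.03. Other coding genes had in that comparison a median of 0.21 up to 600 bases (2155 genes, 29.5% higher at that threshold), -0.11 between 1200 and 2400 bases (5771 genes, 15.5% lower) and -0.06 above 2400 bases. Across the 48 members, log2 coding length and log2 fold change had a Pearson r of -0.853 (Spearman rho -0.818), against -0.140 (rho -0.264) across all 15883 coding genes tested. In resilient against non-defeated TRAP, r over members was 0.832 (rho 0.835), against 0.003 (rho 0.054) across all coding genes. In susceptible against non-defeated TRAP it was -0.690 (rho -0.720), against -0.137 (rho -0.261). The 3 comparisons share libraries with each other. Genes within a sample are not independent replicates, and their libraries are the same, so these are descriptions.

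A fit with an offset that follows coding length in each library, chosen after the data were seen, moved the median of susceptible against resilient from 0.26 to 0.04. Members higher at an unadjusted p under 0.05 went from 25 to 5 (10.2% of all genes in that fit), those lower from 4 to 6 (8.89%), and 0 passed the adjusted threshold. Cox7c was then at 0.18 ± 0.06 (adjusted p = 0.0934), Uqcrb at 0.25 ± 0.07 (adjusted p = 0.0688) and Sdha at -0.26 ± 0.09 (adjusted p = 0.122). In TRAP against input the median went from 1.49 to 1.14. At the adjusted threshold 44 members were higher and 2 lower, against 33.2% and 22.8% of all genes. The cause of this order was not tested.

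**Figure D5:**
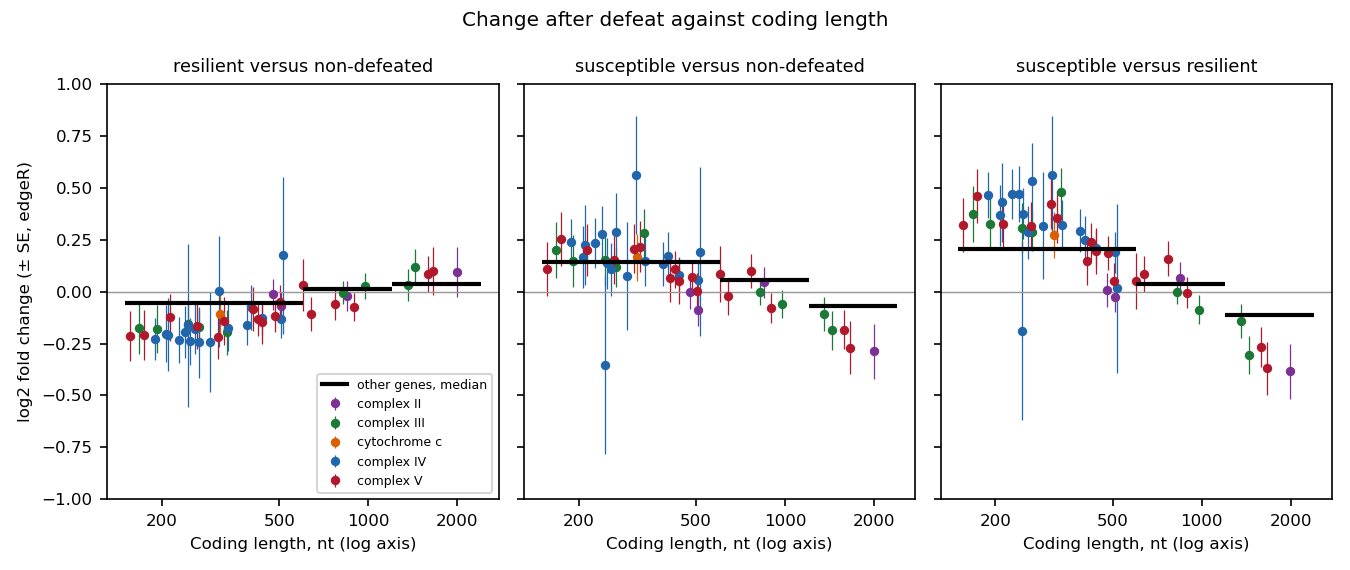
Log2 fold change of each tested member, with a standard error derived from the edgeR test statistic, against its coding length in bases on a log axis, for the 3 comparisons between non-defeated (n = 4), resilient (n = 4) and susceptible (n = 3) TRAP, coloured by complex. Black bars give the median of other coding genes up to 600, from 600 to 1200 and from 1200 to 2400 bases. Of members up to 600 bases, 35 of 37 lie above 0, and the 5 longest lie below 0, in susceptible against resilient TRAP, with the slope turned in resilient against non-defeated TRAP.

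Genes that work with the members were read in the same comparison. Of 40 assembly factors, 1 was higher at an adjusted p under 0.05, against 1.02% of all genes. At the unadjusted threshold, 16 were higher and 1 was lower, against 10.8% and 10.1% of all genes, and the median log2 fold change was 0.18. The factor past the adjusted threshold was Cox20, which helps to insert a core subunit of complex IV (0.51, adjusted p = 0.0477), followed by the copper chaperone Cox17 (0.43, adjusted p = 0.0535). The 6 mitochondrially encoded subunits were all positive, with 3 higher at the unadjusted threshold and a median of 0.84. Their sums were 55.4 to 126 CPM in resilient and 111 to 233 CPM in susceptible TRAP. As they are not translated on the tagged ribosomes, these levels do not measure their translation. None of the lists of cell type markers had a member at an adjusted p under 0.05 between the stress groups. The summed level of PV neuron markers was 3641 to 4342 CPM in resilient and 3202 to 4472 CPM in susceptible TRAP. Endothelial markers summed to 6.56 to 22.0 CPM in resilient and 9.45 to 14.8 CPM in susceptible TRAP. The part of these markers in the result was not tested.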

How the data were processed

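TRAP RNA of 11 hippocampal samples and total RNA of 3 input samples were sequenced as full-length cDNA. The authors deposited gene-level read counts as whole numbers, which were not normalized, and the submitters' processing notes name STAR 2.5.3a and HTSeq with the mm10 build. The annotation used for counting is not given in the sources used here. Genes were named from GENCODE M21 (GRCm38), which gave exon and coding lengths. Counts of all 14 libraries were fitted together in R 4.3.3 with edgeR 4.0.16 (TMM, default low-count filter, quasi-likelihood test, 2-sided), with Benjamini-Hochberg adjustment over the 21298 genes kept. Standard errors were derived from the test, as the absolute log2 fold change divided by the square root of its F statistic. RPKM used TMM-scaled library sizes and total exon length, and log2 CPM a prior count of 2. DESeq2 1.42.0 on 2 groups, a likelihood ratio test, RLE size factors, other filters, fewer groups, offsets for length, a covariate for sample number and leaving out each library were alternatives. Adding copies to members and the offset for coding length, known for 74.6% of genes and 48 of 48 members, were chosen after the data were seen. Genes named are the Sdh genes, Cyc1, Cycs, the isoform families, core subunits, the members of smallest p in each complex and direction (1 a direction against non-defeated TRAP, otherwise 2), and members past the adjusted threshold. Cmc2, Coa5, Cox20, Cox17 and Cldn5, genes that are no members, were named after their values were seen. The members and lists were chosen with earlier results of these data known. The fit was tested on simulated data whose changes were larger than those of any member between stress groups. That test therefore does not bear on changes as small as these.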

Additional observations from a re-analysis of the deposited data

Results flagged for a closer look

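In 96 groups of 4 TRAP libraries (48 members in the non-defeated and the resilient groups), the gap between the most extreme library and its nearest neighbour, as a share of the range, was compared with Dixon's critical value of 0.829, and chance passes it in about 1 in 20 groups. It was passed in 3 groups. Cox7a1, the muscle form of a complex IV subunit, had 9.83 CPM in non-defeated library 1 and 5.78 to 6.20 CPM in the other 3. Atp5g1, one of the genes for the c ring of complex V, had 1381 CPM in resilient library 3 and 1194 to 1206 CPM in the other 3. Atp5o, a stalk subunit of complex V, had 729 CPM in resilient library 5 and 802 to 815 CPM in the other 3.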

How the results depend on the processing

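No paired analysis was made. The groups share no sample numbers, and the labels do not say whether any input came from a mouse that also gave a TRAP sample. In TRAP against input, 45 members were higher at an adjusted p under 0.05. The count was 44 or 45 in every alternative, against 18.8% to 33.2% of all genes. The median log2 fold change of 1.49 was 1.14 with the offset for coding length and 1.31 with the offset for gene length, and ran from 1.43 to 1.54 with 1 library left out. The 1 member lower became 0 with 2 groups only, DESeq2 or no filter (30.3%, 22.8% and 20.2% of all genes). It was 2 with the coding-length offset (22.8%) and ran from 0 to 1 with 1 library left out (22.8% to 27.0%). In susceptible against resilient TRAP, 1 member was higher at an adjusted p under 0.05 (1.02% of all genes). The count was 6 with the likelihood ratio test (2.66%), 4 with DESeq2 (1.84%) and 3 with at least 10 counts in every library (1.68%). It was 2 with the covariate for sample number (0.636%) or the offset for gene length (1.35%). With 2 groups only, TRAP libraries only, RLE size factors, no filter, copies added or the coding-length offset it was 0. Those fits called 0.0%, 0.0%, 0.784%, 0.198%, 1.01% and 0.953% of all genes. With 1 library left out the count ran from 0 to 19 (0.00922% to 3.01% of all genes). The count of 25 higher at an unadjusted p under 0.05 was 5 with the coding-length offset and ran from 8 to 30 with 1 library left out, the count of 4 lower ran from 1 to 5, and the median of 0.26 was 0.039 with the coding-length offset and ran from 0.17 to 0.35.

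In susceptible against non-defeated TRAP, 2 members were higher at an unadjusted p under 0.05 (6.61% of all genes). The count was 0 with 2 groups only, DESeq2 or the coding-length offset (3.97%, 3.78% and 6.31%). It was 1 with RLE size factors, TRAP libraries only, copies added, the likelihood ratio test or the gene-length offset. Those fits called 6.58%, 4.8%, 6.57%, 6.51% and 6.74% of all genes. With 1 library left out the count ran from 0 to 22 (4.5% to 9.62%). The 1 lower (6.7% of all genes) became 0 with 2 groups only, DESeq2 or TRAP libraries only (4.35%, 4.0% and 5.29%). It was 2 with RLE size factors, no filter or the gene-length offset (6.48%, 5.17% and 6.49%). With the covariate it was 3 (6.18%) and with the coding-length offset 5 (6.72%). It ran from 0 to 4 with 1 library left out (4.42% to 9.18%). In resilient against non-defeated TRAP, the 0 members higher ran from 0 to 1 with 1 library left out (1.7% to 3.39% of all genes). The 1 lower (2.16% of all genes) became 3 with 2 groups only or DESeq2 (1.55% and 1.65%). It was 0 with RLE size factors, TRAP libraries only, copies added or no filter (2.17%, 1.44%, 2.17% and 1.78%). With the covariate it was 9 (2.54%), with the coding-length offset 2 (2.8%) and with the gene-length offset 4 (2.6%). It ran from 0 to 9 with 1 library left out (1.32% to 3.84%). With the coding-length offset, 2 single members changed sign, Atp5d in susceptible against non-defeated TRAP (-0.12) and Sdhd in susceptible against resilient TRAP (-0.16). The causes were not tested, except that fewer libraries enter when groups or libraries are left out. Each group had only 3 or 4 libraries, and Cox4i2, Cox6b2, Cox7b2, Cox7a1 and Cox8b rest on few counts. How far the spread between libraries or the counts limit these comparisons was not tested.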
